A study of Homo sapiens with 8 samples.

Results

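Regulators of G protein signalling, the RGS family, were followed in cells labelled as the human myeloma lines MM1S and OPM1 through 7 genes: RGS1, RGS2, RGS10, RGS13, RGS14, RGS16 and RGS19. They were taken from 19775 genes on the array by their names in the platform annotation, and all 17 probe sets that carry 1 of those names were read, out of 54675. The 7 genes were chosen by signals and changes measured on these same arrays, so every value and every call given for them is a description and carries no test. No cut-off for the choice is given in the sources used here, and 13 more RGS genes on the array are described after them.

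Both names are those of established lines of multiple myeloma, a cancer of plasma cells, and OPM1 stands below for the cells labelled so. Cells of each line were left untreated or exposed to 5 nM of Zalypsis, a DNA-binding drug derived from a marine product, and treated cells were taken when 15 to 20% of them were dying. Each of the 4 groups (MM1S control, MM1S Zalypsis, OPM1 control, OPM1 Zalypsis) has 2 arrays, and the labels do not say whether the 2 come from separately grown cells. The spread between arrays may therefore be technical only, and the exposure time is not given in the sources used here.

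An RGS protein binds the active, GTP-bound alpha subunit of a heterotrimeric G protein and speeds the hydrolysis of its GTP, which ends the signal from the receptor. RGS1, RGS2, RGS13 and RGS16 belong to the small R4 subfamily, RGS10 and RGS14 to the R12 subfamily, and RGS19 to the RZ subfamily. In B lymphocytes these proteins limit responses to chemokines and other ligands of G protein-coupled receptors, and RGS1 and RGS13 are known from germinal centre B cells.

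The members with the widest range over the arrays all belong to the R4 subfamily, so the 250 bases before their transcript starts are shown, 5′ to 3′ on the strand of the gene, as RefSeq gives them for GRCh38.p14. Promoter sequences were found for all 7 genes. Capitals mark matches, on either strand, to the TATA box (TATAAA), the short form of the cAMP response element (TGACG), the AP-1 site (TGANTCA), the octamer of B cell promoters (ATGCAAAT) or the GC box (GGGCGG).
RGS1: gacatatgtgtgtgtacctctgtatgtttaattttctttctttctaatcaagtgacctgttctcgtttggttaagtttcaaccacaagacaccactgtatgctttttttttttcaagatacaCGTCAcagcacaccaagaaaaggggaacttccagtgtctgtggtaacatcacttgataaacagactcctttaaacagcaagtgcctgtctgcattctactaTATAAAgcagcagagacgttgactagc
RGS2: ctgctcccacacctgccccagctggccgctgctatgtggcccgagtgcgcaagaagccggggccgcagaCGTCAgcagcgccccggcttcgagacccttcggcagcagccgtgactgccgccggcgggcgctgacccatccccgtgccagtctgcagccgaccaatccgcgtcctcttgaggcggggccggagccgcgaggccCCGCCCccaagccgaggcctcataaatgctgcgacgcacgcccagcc
RGS13: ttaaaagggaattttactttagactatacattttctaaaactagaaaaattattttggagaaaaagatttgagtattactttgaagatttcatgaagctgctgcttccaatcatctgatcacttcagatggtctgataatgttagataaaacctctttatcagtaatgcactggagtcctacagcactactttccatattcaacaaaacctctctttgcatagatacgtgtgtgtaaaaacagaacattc
RGS16: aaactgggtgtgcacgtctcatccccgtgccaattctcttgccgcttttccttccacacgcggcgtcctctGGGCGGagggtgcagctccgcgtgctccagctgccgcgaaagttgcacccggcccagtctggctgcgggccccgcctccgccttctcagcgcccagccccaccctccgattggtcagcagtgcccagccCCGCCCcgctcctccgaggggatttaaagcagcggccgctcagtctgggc

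The RGS1 stretch lies at chr1:192575523-192575772 on the plus strand, has a GC content of 39.2%, and holds a TATA box whose first base is 27 bases before the start and, farther upstream and on the other strand, a short cAMP response element. The RGS2 stretch, at chr1:192808789-192809038 on the plus strand, has a GC content of 72.8% and holds a short cAMP response element at 181 and a GC box at 47 bases before the start, both on the other strand. The RGS13 stretch, at chr1:192635897-192636146 on the plus strand, has a GC content of 32% and none of the motifs. The RGS16 stretch, at chr1:182604390-182604639 on the minus strand, has a GC content of 68.4% and holds GC boxes at 179 and 50 bases before the start. Among 35116 RefSeq promoters of the same length, 10.7% hold the TATA box, 21.2% the short cAMP response element, 6.57% the AP-1 site, 1.63% the octamer and 42.6% the GC box, and the median GC content is 58%. No matches overlap in these stretches, and a match is only a match of letters. RGS1, RGS13 and RGS2 follow each other on chromosome 1 with no other coding gene between them, and span 4.25, 24.2 and 3.24 kb, against a median of 24.1 kb over coding genes. RGS16 spans 5.77 kb elsewhere on that chromosome, next to RGS8.

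Several measures that moved with the groups bear on these values. Probe sets for the poly-A controls, bacterial RNA that is added before labelling, had geometric means of 19.7 to 25.7 in MM1S, of 299.7 and 448 in untreated and of 1862 and 1349 in treated OPM1. The upper quartile of all signals was 77.5 and 78.7 in treated OPM1 and 101 to 115 elsewhere, while the medians lay between 23.0 and 24.8. In MM1S the poly-A controls were thus about as dim as the median probe set. Scaling by them rests on dim signals there and is a weak check of MM1S changes. OPM1 control 1 had a 3′ to 5′ ratio of 2.26 for GAPDH and 5.80 for ACTB, where the other arrays had 0.963 to 1.06 and 1.78 to 2.62. SDC1, which encodes the plasma cell marker CD138, averaged 3194 in untreated MM1S but 9.71 in untreated OPM1, and the summed signal of 10 plasma cell markers was 35235 to 37483 in the first and 5754 to 6466 in the second. The 9 B cell markers on the array summed to 891 to 1023 in untreated MM1S and 11686 to 13484 in untreated OPM1, with PAX5, the defining factor of B cells, at 6.89 and 3219. Of these 9 markers, 8 were called higher and 1 lower in untreated OPM1, the latter being BLNK (588 in MM1S and 424 in OPM1). Of the 10 plasma cell markers, 8 were called lower and 2 higher in untreated OPM1, the latter being CD38 (54.2 in MM1S and 489 in OPM1) and CD27 (93.6 and 426).

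Signals are intensities from the dChip software, and each gene is followed by its brightest probe set. Changes are differences of log2(signal + 32) with their standard errors, a scale that understates the change of dim genes. A gene is called where limma gave an adjusted p under 0.05 over the 11865 genes bright enough to be tested, which all 7 members were. Levels of different genes come from different probe sets and are not set against each other.

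**Figure D1:**
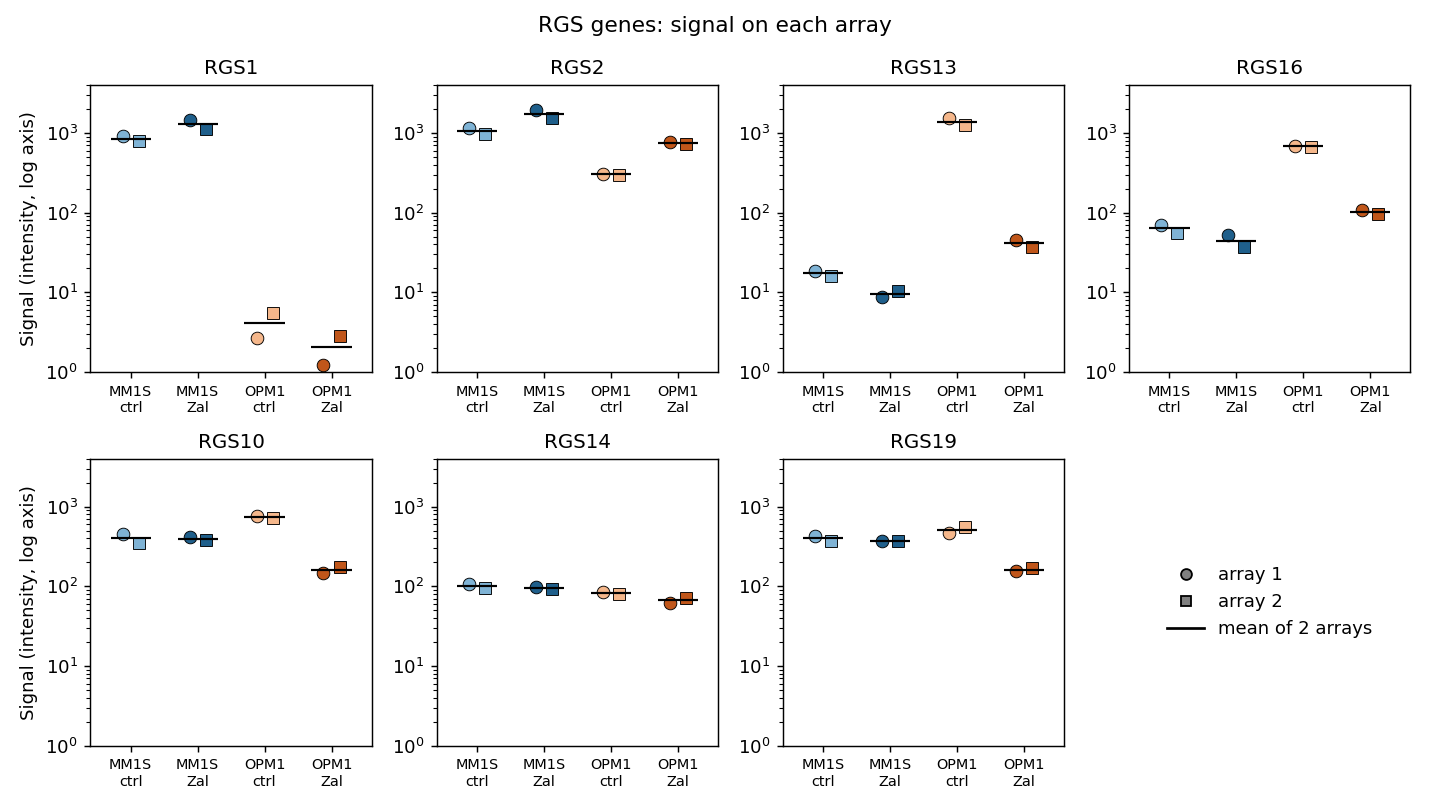
Signal of the 7 RGS genes on each array, on a log axis of intensity. Circles are array 1, squares array 2, and bars the mean of 2 arrays in each of the 4 groups; RGS13 and RGS16 are high on the untreated OPM1 arrays only, and RGS1 on the MM1S arrays only.

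RGS1, which acts mainly on Gi and Gq alpha subunits and dampens chemokine responses of B cells, was bright in MM1S and near the floor of the arrays in OPM1-labelled cells. In MM1S its signal was 902 and 782 without Zalypsis and 1455 and 1112 with it, and both treated arrays lay above both controls. On the OPM1 arrays it was 2.66 and 5.50 without and 1.24 and 2.83 with Zalypsis, all below the lower quartile of the probe sets, which ran from 8.84 to 9.65. The change in MM1S was 0.58 ± 0.14 and was called. At so low a signal the OPM1 value of -0.08 ± 0.14 is no measure of a response. The call in MM1S was lost without MM1S Zalypsis 1, the brighter of the treated arrays (log2 0.39). It was also lost with poly-A control scaling (0.36), which rests on dim controls in this line. A second probe set read 430 and 420 on the MM1S controls and 769 and 659 with Zalypsis, so both bright sets were higher on the treated arrays, and the third stayed at or under 22.8 on every array.

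RGS2, an R4 member that prefers Gq alpha subunits and is induced by many stimuli, was the member that was called higher in both lines. Its signal was 1150 and 977 on the MM1S controls and 1947 and 1543 with Zalypsis. On the OPM1 arrays it was 308 and 295 without Zalypsis and 776 and 731 with it. In both lines both treated arrays lay above both controls, and the treated OPM1 arrays stayed below the untreated MM1S arrays. The changes were 0.69 ± 0.16 in MM1S and 1.24 ± 0.16 in OPM1. The MM1S call was lost without MM1S Zalypsis 1 (0.53) and with poly-A control scaling (0.47), which rests on dim controls in MM1S. In OPM1 the direction turned with the scaling, since the same arrays gave -0.74 when scaled by the poly-A controls, where the median of all tested genes also moved, from -0.07 to -1.70. RGS2 thus lay above the median of all genes under either scaling. It has 1 probe set, so no second reading is at hand.

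RGS13, a short R4 protein known from germinal centre B cells and mast cells, had the largest change of the 7. In OPM1 its signal was 1523 and 1248 without Zalypsis and 45.8 and 36.9 with it. Both treated arrays were thus far below both controls, with a change of -4.27 ± 0.13 on the log2 scale. On the MM1S arrays it was 18.4 and 16.2 without and 8.72 and 10.4 with Zalypsis. These are below the median signal of the arrays, and the MM1S change of -0.25 ± 0.13 was not called, except with a pseudocount of 8 (-0.53). A second probe set went from 556 and 660 to 26.9 and 23.4 in OPM1, and the third was dim, at 20.0 and 15.9 against 14.1 and 1.60.

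RGS16, an R4 member that acts on Gi and Gq alpha subunits, fell in OPM1 as well. In OPM1 its signal was 688 and 669 without Zalypsis and 107 and 97.0 with it, a change of -2.41 ± 0.13. On the MM1S arrays it was 70.4 and 56.1 without and 51.7 and 36.6 with Zalypsis. The treated MM1S arrays lay below the controls, but the change of -0.33 ± 0.13 was not called. It was called in 5 of 18 alternatives, among them those without MM1S Zalypsis 1 (-0.47), without OPM1 control 1 (-0.33) or without OPM1 control 2 (-0.33). The replicate number as a block (-0.33) gave a call too. On leaving out single arrays the MM1S change ran from -0.47 to -0.18. The second probe set followed in OPM1, from 574 and 539 to 86.4 and 61.6. The third ran the other way at low signal, from 11.8 and 15.7 to 29.8 and 50.0 (log2 0.64), so the 3 sets of this gene disagree.

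The R12 and RZ members were more even between the untreated lines. RGS10, a small protein that acts on Gi alpha subunits, read 451 and 347 on the MM1S controls and 415 and 382 with Zalypsis. On the OPM1 arrays it read 753 and 721 without and 148 and 174 with Zalypsis. The MM1S groups overlap, with a change of 0.01 ± 0.15, and the OPM1 groups are apart by -2.00 ± 0.15. Both other probe sets were lower in OPM1 too, one from 634 and 486 to 166 and 147 and the other from 80.9 and 85.3 to 14.2 and 23.7.

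RGS14, which adds Ras-binding domains and a GoLoco motif that holds Gi alpha subunits in their GDP-bound form, was called in none of the 4 comparisons. Its signal was 106 and 94.7 on the MM1S controls, 99.6 and 92.6 with Zalypsis, 84.5 and 80.0 on the OPM1 controls and 62.2 and 70.9 with Zalypsis. The MM1S groups overlap (-0.05 ± 0.12), and the treated OPM1 arrays lay below the controls by -0.21 ± 0.12. With poly-A control scaling the OPM1 change was -1.66 and called, close to the median of all genes under that scaling, and with quantile normalization it was 0.05 and not called. The other probe sets gave 0.08 and 0.02 in OPM1.

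RGS19, a member of the RZ subfamily that binds Gi-class alpha subunits, read 428 and 373 on the MM1S controls and 374 and 375 with Zalypsis. On the OPM1 arrays it read 469 and 557 without and 154 and 170 with Zalypsis. The OPM1 groups are apart by -1.49 ± 0.15, whereas the MM1S groups overlap (-0.09 ± 0.15). It has 1 probe set.

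Over the family, 2 of 7 members were called in MM1S, both higher, where 37.6% of all genes tested were called, 16.4% higher and 21.1% lower. In OPM1, 5 of 7 were called, 1 higher and 4 lower, beside 63.9% of all genes, 25.4% called higher and 38.5% called lower. The median change of the members was -0.05 in MM1S and -1.49 in OPM1, and that of all genes tested 0.02 and -0.07. Since these comparisons were known when the genes were picked, nothing is read from the counts. The decreases of RGS10, RGS13, RGS16 and RGS19 in OPM1 kept their direction and call in every alternative that gave a value, 19 for RGS10 and RGS13 and 18 for RGS16 and RGS19. Their lowest and highest values were -3.83 and -1.58 for RGS10, -5.81 and -2.70 for RGS13, -4.15 and -1.42 for RGS16, and -3.31 and -1.09 for RGS19. The alternative without probe sets of shared sequence (_x_at and _s_at) gave no value for RGS16 and RGS19, so their decreases were not checked by it. Both RGS16 sets that fell and the only RGS19 set carry such a suffix. The RGS16 set without it rose in OPM1 at low signal (log2 0.64). In bulk RNA, fewer cells that hold a transcript and less transcript per cell cannot be told apart. B cell markers moved in the same arrays: 8 of 9 were called lower in OPM1 with Zalypsis, and PAX5 averaged 50.9 there. The summed signal of the 9 was 4566 to 5616 there. Most of it came from CD79A, the marker that was not called, which averaged 3279 without and 3730 with Zalypsis. Of the 10 plasma cell markers, 7 were called lower and 1 higher there, and of 3 tested T and NK cell markers 1 was called lower, IL7R, from 627 to 55.0, and 1 higher. Among the myeloid markers, none of which was bright enough to be tested, CD14 averaged 5.36 without and 98.6 with Zalypsis. The part of these markers, the poly-A controls and the 3′ to 5′ ratio of OPM1 control 1 in these changes was not tested. Without OPM1 control 1 the calls of all 4 genes stayed.

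**Figure D2:**
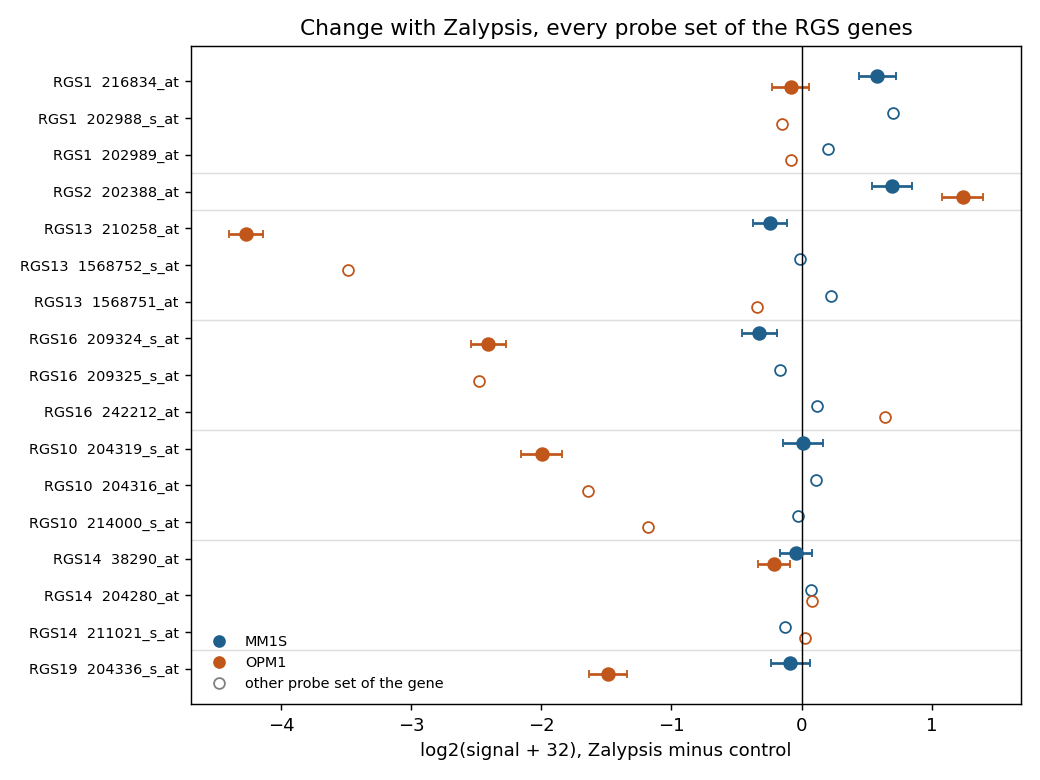
Change with Zalypsis, as the difference of log2(signal + 32), for each of the 17 probe sets of the RGS genes. Filled points with bars are the brightest set of a gene with its standard error, open points the other sets; the OPM1 points of RGS13, RGS16, RGS10 and RGS19 lie to the left, at -4.27, -2.41, -2.00 and -1.49, and both RGS2 points to the right.

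**Figure D3:**
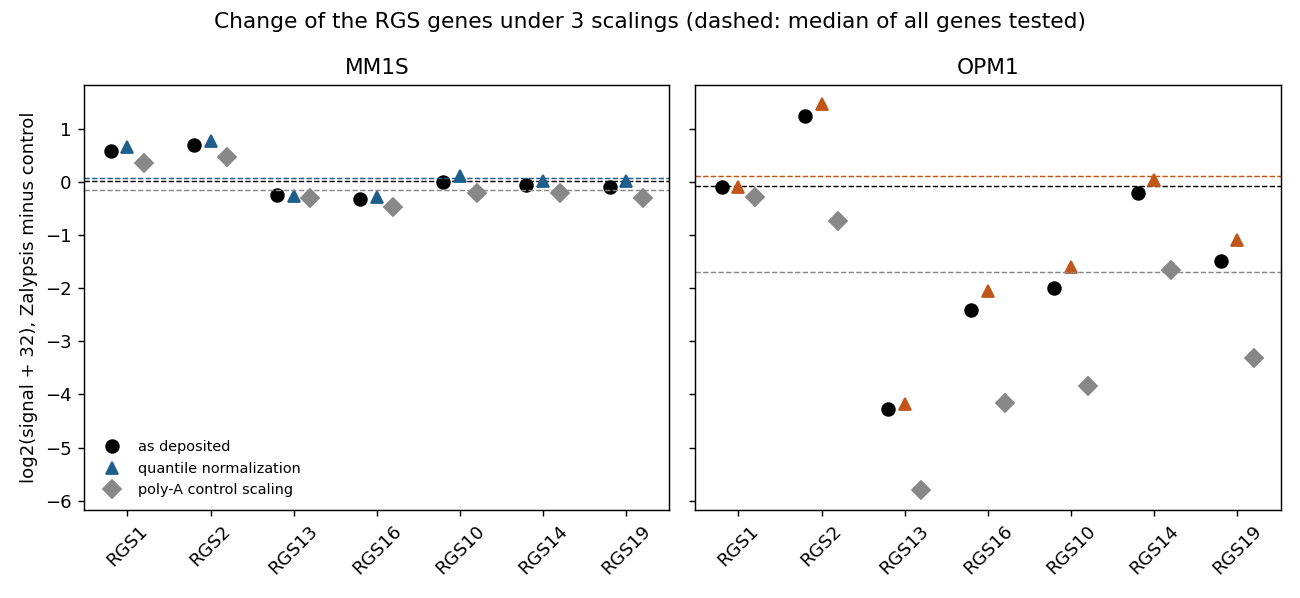
Change of the 7 genes with Zalypsis as deposited (circles), after quantile normalization (triangles) and after poly-A control scaling (diamonds), as differences of log2(signal + 32); dashed lines are the medians of all genes tested. RGS2 in OPM1 goes from 1.24 to -0.74 with poly-A control scaling, and RGS10, RGS13, RGS16 and RGS19 stay below 0 under all 3.

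The lines were also compared in how far they responded, as the OPM1 change minus the MM1S change. In this comparison 6 of 7 members were called, 1 higher and 5 lower, beside 46.6% of all genes, 15.3% called higher and 31.2% called lower. The difference was -4.02 ± 0.18 for RGS13, whose MM1S arrays are near the floor, so that it rests on the OPM1 arrays, -2.08 ± 0.19 for RGS16, -2.01 ± 0.22 for RGS10 and -1.40 ± 0.21 for RGS19. It was -0.66 ± 0.20 for RGS1, which rests on the MM1S arrays, and that call was lost without MM1S Zalypsis 1 (-0.48) and with poly-A control scaling (-0.64). The RGS2 difference of 0.54 ± 0.22 was just inside the threshold, kept its call and sign in 9 of 19 alternatives and turned to -1.22 with poly-A control scaling. It was lost on leaving out any 1 of 6 arrays: to 0.43 without MM1S control 1, 0.38 without MM1S Zalypsis 2, 0.57 without OPM1 control 1, 0.52 without OPM1 control 2, 0.50 without OPM1 Zalypsis 1 and 0.58 without OPM1 Zalypsis 2. For RGS14 the difference was -0.17 ± 0.17.

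Between the untreated lines, 5 of 7 members were called, 3 higher and 2 lower in OPM1, beside 63.7% of all genes, 28.6% called higher and 35.2% called lower. RGS13 (4.84 ± 0.13), RGS16 (2.90 ± 0.13) and RGS10 (0.84 ± 0.15) were higher in OPM1-labelled cells, and RGS1 (-4.60 ± 0.14) and RGS2 (-1.71 ± 0.16) were lower. These 5 calls held in all alternatives that gave a value. RGS16 gave none without probe sets of shared sequence, and its dim set without such a suffix was at 0.11. For RGS1 and RGS13 the arrays of the dim line are at or near the floor, so the values depend on the pseudocount and ran from -6.14 to -2.84 and from 3.12 to 5.78. RGS19 (0.33 ± 0.15) was not called, though its arrays did not overlap between the lines, and it was called in 8 of 17 alternatives, in all of which the value ran from 0.22, without OPM1 control 2, to 0.52. The calls include those on leaving out MM1S control 1 (0.43) or OPM1 control 1 (0.45). RGS14 was at -0.21 ± 0.12, while its second probe set averaged 66.5 in untreated MM1S and 32.3 in untreated OPM1 (-0.61). Ordered by group mean, RGS13 ran OPM1 control (1386 ± 194, SD, n = 2) and OPM1 Zalypsis (41.4 ± 6.33), followed by both MM1S groups (17.3 ± 1.58 and 9.55 ± 1.17), which are near the floor and have no order. RGS16 ran OPM1 control (679 ± 14.0), OPM1 Zalypsis (102 ± 7.09), MM1S control (63.2 ± 10.1) and MM1S Zalypsis (44.1 ± 10.7), and the last pair differ by a change that was not called. RGS1 and RGS2 had the opposite extreme, with MM1S Zalypsis first (1283 ± 242 and 1745 ± 286) and MM1S control second (842 ± 85.3 and 1064 ± 122). Next and last came OPM1 Zalypsis (753 ± 31.2) and OPM1 control (301.4 ± 9.12) for RGS2. For RGS1 both OPM1 groups (4.08 ± 2.01 and 2.04 ± 1.12) are at the floor and have no order.

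Genes with the most similar pattern over the 8 arrays were found by the mean absolute difference of log2 values centred on each gene's mean. RGS13 was nearest to PTPRC, which encodes the leukocyte phosphatase CD45 (0.20), PPM1E (0.25) and KISS1R (0.27), with a median distance of 1.81 to all tested genes. PTPRC averaged 977 on the OPM1 controls, 42.7 with Zalypsis and 10.7 and 12.1 in the MM1S groups. RGS16 was nearest to CD180, a surface receptor of B cells (0.11), RAP1GAP2 (0.12) and LNX1 (0.15). RGS1 was nearest to CAV2 (0.09), BIN2 (0.12) and ITM2A (0.13), and RGS2 to EBP (0.09), PPP1R15A, which encodes the stress-induced phosphatase subunit GADD34 (0.09), and SELENOK (0.10). PPP1R15A went from 336 to 480 in MM1S and from 74.3 to 247 in OPM1. RGS10 was nearest to NMI (0.06), UHRF1 (0.10) and SMYD2 (0.10), RGS19 to DDX50 (0.06), MARF1 (0.06) and MGST2 (0.07), and RGS14 to ACOT8 (0.04), ARCN1 (0.05) and NUDT21 (0.06). For RGS14 the median distance to all genes was 0.41. Nothing on shared function or control is read from these distances.

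Of the 13 other RGS genes on the array, 5 were bright enough to be tested. RGS9, known from photoreceptors and striatal neurons, averaged 142 ± 4.61 on the OPM1 controls and 44.5 ± 5.60 with Zalypsis. This is a fall of 1.19 on the log2 scale. It read at most 12.5 on the MM1S arrays and passed the filter on low values only through the OPM1 controls. The fall from those controls is therefore a description and carries no test. RGS3 fell in MM1S from 140 ± 17.3 to 72.3 ± 2.56 (log2 -0.72 ± 0.15, limma adjusted p = 4.1e-04), a call lost with the mean of its probe sets (-0.19). RGS11 was called higher in OPM1 at low signal, from 12.5 ± 8.65 to 30.5 ± 4.63, and this was lost without OPM1 control 1 (0.30). RGS6 and RGS12 were called in neither line with Zalypsis. RGS18 read between 3.73 and 13.9 on all 8 arrays, and RGS8, beside RGS16, between 10.9 and 38.5. The list median was -0.03 in MM1S and 0.06 in OPM1. RGS9 was also higher in untreated OPM1 than in untreated MM1S (2.23 ± 0.13), where it averaged 5.24, at the floor. RGS3 (-1.06), RGS6 (-0.85) and RGS11 (-0.66) were lower in untreated OPM1, but RGS6 gave 0.21, not called, without probe sets of shared sequence.

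The genes that RGS proteins act on, and those around them, were read from lists. Their counts stand beside the shares of all genes tested, 21.1% called lower and 16.4% higher in MM1S and 38.5% and 25.4% in OPM1. Of 10 tested G protein alpha subunit genes, 2 were called in MM1S, both lower, and 5 fell and 1 rose in OPM1, with medians of -0.07 and -0.56. GNA12 fell from 297 to 88.9 in MM1S (-1.44 ± 0.13, limma adjusted p = 1.3e-08) and from 453 to 61.5 in OPM1 (-2.37 ± 0.13, limma adjusted p = 8.6e-13). GNAL, an alpha subunit that activates adenylyl cyclase, fell in both lines too, by 0.75 and 1.25. In OPM1, GNAZ (-1.33), whose product is a substrate of RZ proteins, and GNA13 (-1.26) fell. GNAI1 was lower (-2.77, from 233 to 7.04, at the floor) and GNA11 higher (1.77) in untreated OPM1 than in untreated MM1S. On leaving out single arrays the GNA11 value ran from 0.93, without OPM1 control 2, where another probe set stood for it, to 1.96.

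Of 10 beta and gamma subunit genes, 4 fell and 2 rose in MM1S (3 and 4 after quantile normalization), and 6 fell and 3 rose in OPM1 (9 and 0 with poly-A control scaling), with medians of -0.08 and -1.15. GNB1 fell from 1936 to 204 in OPM1 (-3.05 ± 0.16, limma adjusted p = 4.4e-13) and by 0.76 in MM1S, and GNB4 fell in OPM1 (-1.87). GNG7 (-2.77) and GNG2 (-1.57) were called lower there by their brightest probe sets. The brightest sets whose names lack the suffixes for shared sequence gave 0.41, called higher, for GNG7 and 0.044, not called, for GNG2. GNB3 rose in MM1S from 23.3 to 111 (1.38 ± 0.21).

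Of 14 other genes that encode an RGS domain, 9 fell and 1 rose in MM1S (5 called in all without probe sets of shared sequence) and 8 fell and 2 rose in OPM1. The medians were -0.47 and -0.85. ARHGEF12, an exchange factor with an RGS domain, fell from 1068 to 400.5 in MM1S (-1.35 ± 0.14, limma adjusted p = 7.1e-08) and from 233 to 48.9 in OPM1 (-1.71 ± 0.14). SNX13 (-1.30 in MM1S) and SNX14 (-0.84 in MM1S and -2.23 in OPM1), which are sorting nexins, fell, and so did AXIN1 in OPM1 (-1.28), a scaffold of the Wnt pathway. SNX25 was called lower in both lines (-2.02 and -2.77) by its brightest set. A set without the suffix gave 0.26, not called, in MM1S and 0.37, called higher, in OPM1. For SNX14 in MM1S such a set gave 0.018, not called.

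Of 9 tested effectors, 1 fell in MM1S (3 called with no filter on low values) and 3 fell and 1 rose in OPM1. The medians were 0.19 and -0.15, beside 0.02 and -0.07 for all genes tested. PLCB1 was not tested, since it is bright on the MM1S controls only and the filter takes the mean over all 8 arrays. In MM1S it averaged 126 without and 7.62 with Zalypsis. ADCY3, an adenylyl cyclase, fell by 1.00 in MM1S and by 2.11 in OPM1. ADCY7 (-2.14) and PIK3CG (-2.00), the phosphoinositide kinase that beta and gamma subunits activate, fell in OPM1 alone by call; the difference between the lines was -1.84 and -1.70 (limma adjusted p = 1.4e-06 and 7.4e-07). PLCB3 was called higher in OPM1 (0.32), and was at -1.09 with poly-A control scaling. Of 13 protein kinase A and cAMP genes, 6 fell and 3 rose in MM1S, and 8 fell and 2 rose in OPM1, with medians of -0.40 and -1.57. This list also holds the transcription factors CREB1 and CREM, and CREM is among those that rose in both lines (0.54 and 0.97). PRKAR2B, a regulatory subunit of the kinase, fell from 2128 to 129 in OPM1 (-3.75 ± 0.14, limma adjusted p = 2.7e-15), and PDE4A, which breaks down cAMP, fell in both lines (-0.88 and -2.64). PRKAR2A was called lower in both lines (-1.14 and -2.37), but a second probe set stood for it without MM1S control 1, MM1S control 2, OPM1 control 1 or OPM1 control 2. That set gave 0.075 to 0.30 in MM1S and 0.77 to 0.81, called, in OPM1.

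Of 4 exchange, GoLoco and arrestin genes, 0 were called in MM1S by limma (0 at an unadjusted p under 0.05, and 1 of the list with every probe set tested on its own), and 3 fell in OPM1: ARRB1 (-1.41), GPSM3 (-0.50) and GPSM2 (-0.47). Both GPSM calls were lost with quantile normalization, and ARRB1 gave 0.098 without OPM1 control 1, where another probe set stood for it. Of 12 receptors, 4 fell and 2 rose in MM1S and 8 were called in OPM1, all lower, with medians of 0.12 and -0.52. P2RY8, which confines B cells to germinal centres, fell from 1167 to 547 in MM1S (-1.04 ± 0.16) and from 954 to 30.9 in OPM1 (-3.97 ± 0.16, limma adjusted p = 6.5e-15). CXCR4, the receptor of the chemokine CXCL12, fell in OPM1 from 3309 to 397 (-2.96 ± 0.15), and the lines differed in this response (-3.13 ± 0.21, limma adjusted p = 2.5e-10). PTGER4, a prostaglandin receptor, rose in MM1S from 52.6 to 173 (1.27 ± 0.12) and fell in OPM1 from 37.7 to 21.9 (-0.37). The chemokine receptors CCR1 (-5.91), CCR10 (-4.39), CCR2 (-3.62) and CXCR3 (-2.81) were lower in untreated OPM1. The first 3 averaged 8.05, 7.88 and 8.65 there, at the floor, so their values depend on the pseudocount. Under poly-A control scaling the calls of the 8 lists in OPM1 were all lower.

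**Figure D4:**
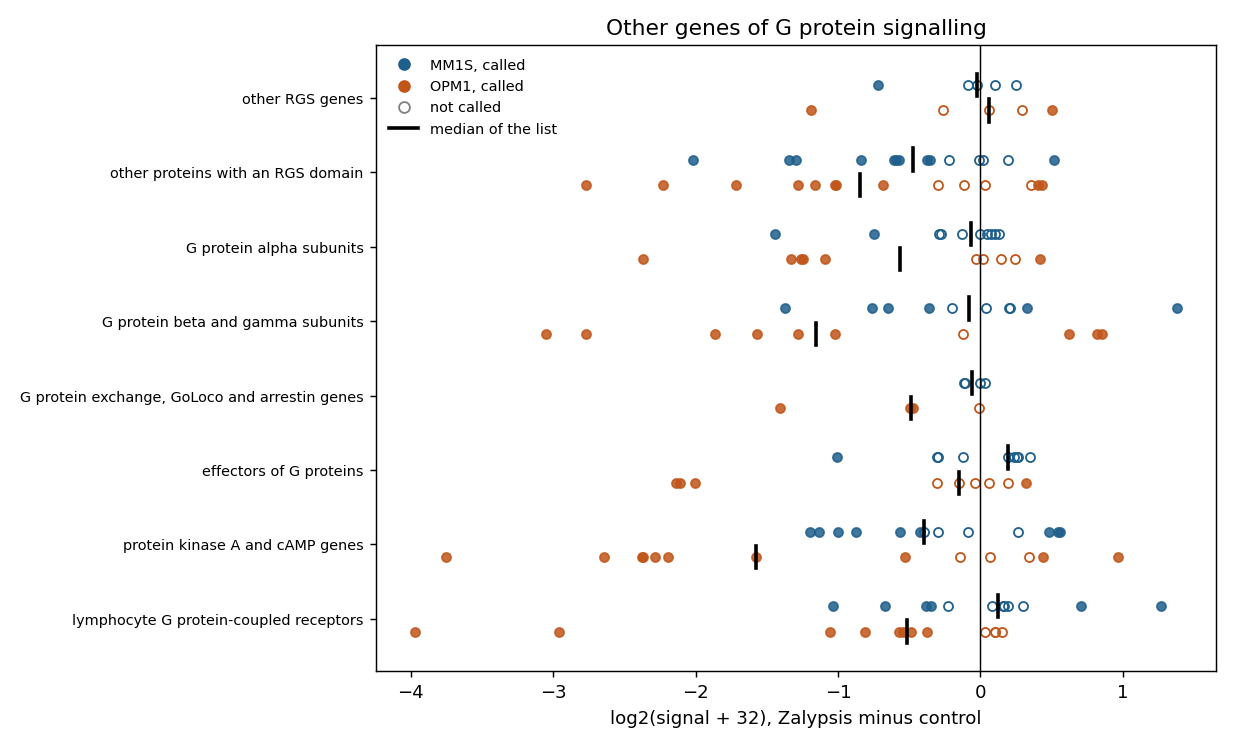
Change with Zalypsis of the other genes of G protein signalling in 8 lists, as the difference of log2(signal + 32). Each point is a tested gene, filled where called, blue for MM1S and orange for OPM1, and black bars are list medians; the OPM1 medians of the beta and gamma subunits (-1.15) and the protein kinase A and cAMP genes (-1.57) lie farthest to the left.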

How the data were processed

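RNA of 8 samples was amplified from 100 ng in 2 cycles and labelled with biotin, per the labels' protocols. The deposited values are intensity values from the authors' dChip analysis, 1 for each of 54675 probe sets and array, on a linear scale. The version and normalization of dChip were not given in the sources used here. Detection flags were not used here. Arrays have no depth, and their number limits the precision.

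Values were kept as deposited and turned into log2(value + 32). Of the probe sets, 41091 carry 1 gene symbol, 1801 several and 11721 none, and only the first were used. Symbols of 41037 sets were updated through RefSeq gene identifiers. The set with the highest mean log2 value stood for a gene. The 40% of genes with the lowest mean, under a signal of 27.3, were left out. A gene that is bright in 1 group only can pass this filter through that group, as RGS13 and RGS9, among others, did through the OPM1 controls. For such a gene the change from or to that group is a description. A model with 1 mean per group was fitted to all 8 arrays (limma 3.58.1 under R 4.3.3, lmFit and eBayes with a trend). Each gene had its own spread, shared by the 4 groups and moderated over genes by eBayes (4 residual degrees of freedom, prior 17.0). Benjamini-Hochberg adjustment was over 11865 genes in each of 4 comparisons. Only the limma fit was run on simulated data, for Zalypsis against control in each line. The choice of probe sets, the filter, the scalings and the other comparisons were not tested in that way.

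The members and lists were chosen with earlier results of these data known, so no p is given for the members. List genes were named for their large changes. The p beside such a gene is adjusted over all 11865 genes, describes that gene only and is no test of its list. Lists are described by counts and medians, without a set test. The text names all members with every probe set, per list and comparison up to 4 called genes with the largest change, the 3 nearest genes of each member, and markers and control probe sets. RGS8, RGS12, RGS18, PLCB1, GNB2, GNG12, CREM and the markers CD14, IL7R, BLNK and CD79A were named after their values were seen. Promoters are those of RefSeq, GRCh38.p14, and no genome was used.

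Alternatives were a pseudocount of 8 or a larger one, no filter or a filter of 60%, quantile normalization, scaling by the geometric mean of 4 poly-A control probe sets within each line, 3 other ways to take probe sets, eBayes without a trend, the replicate number as a block, and leaving out each array. Of the marker lists, 0 of 9 myeloid markers on the array were bright enough to be tested, and they summed to 105 to 135 except on the OPM1 Zalypsis arrays, where the sum was 189 to 263; T and NK cell markers summed to 194 to 782 and stromal markers to 296 to 530 over the arrays.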

Additional observations from a re-analysis of the deposited data

Results flagged for a closer look

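These RGS genes passed limma's threshold in the contrast of the 2 responses to Zalypsis, and their values, the OPM1 change minus the MM1S change in log2, are a description with no test, since the genes were picked with these arrays in view: RGS1 (-0.66), RGS2 (0.54), RGS10 (-2.01), RGS13 (-4.02), RGS16 (-2.08) and RGS19 (-1.40). RGS1 is at the floor in OPM1 and RGS13 near it in MM1S, and RGS2 kept its call and sign in 9 of 19 alternatives. Of the list genes, by the same contrast, RGS9, at the floor in MM1S, differed by -1.44, and the RGS-domain genes differed by -0.71 (AXIN1), -1.39 (SNX14), -0.75 (SNX25) and -0.65 (AKAP10). SNX25 went to 0.030 with the larger pseudocount and to 0.11 without probe sets of shared sequence, and AKAP10 to 0.18 without those sets and to 0.066 without OPM1 control 1. Among subunit genes the largest called differences were GNAI3 -0.82, GNAZ -1.04, GNA12 -0.93, GNA13 -1.33, GNB1 -2.29, GNB4 -2.07, GNG7 -1.40 and GNG10 -1.49. Of these, GNAI3 went to 0.10 and GNG7 to 0.39, not called, without probe sets of shared sequence. Of the 10 tested beta and gamma subunit genes, 7 were called lower and 2 higher, the latter GNB2 (0.78) and GNG12 (0.82). For GPSM2 the difference was -0.50, for ARRB1 -1.29 (0.21 without OPM1 control 1), for ADCY3 -1.10, for ADCY7 -1.84 and for PIK3CG -1.70. In the protein kinase A and cAMP list it was -1.82 for PRKAR1B, -3.33 for PRKAR2B, -1.27 for CREB1 and -1.76 for PDE4A. Among receptors it was -3.13 for CXCR4, -1.14 for CCR7, whose MM1S means of 3.03 and 5.09 are at the floor, -2.94 for P2RY8 and -1.64 for PTGER4. Of the 12 tested receptors 7 were called lower and 1 higher, CCR2 (0.71), which is at the floor in OPM1. In this contrast 46.6% of all genes tested were called, 15.3% higher and 31.2% lower.

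The poly-A control probe sets, which the comparisons do not use as genes, were brighter on the treated than on the untreated OPM1 arrays by a factor of 4.33, against 1.17 in MM1S. No search for single outlying values was made within groups of 2 arrays.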

How the results depend on the processing

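Of 75 recomputed counts over all genes, 73 stayed within 1.5 times the reported count. With poly-A control scaling the MM1S count went from 4457 to 2206 and that of the difference of responses from 5524 to 10550, the median of all genes went from 0.02 to -0.15 in MM1S and from -0.13 to -1.56 for the difference, and the share of calls that were lower from 56.2% to 86.0% in MM1S, from 60.3% to 99.4% in OPM1 and from 67.0% to 98.7% for the difference. With quantile normalization that share was 45.4% in either line, 52.4% for the difference of responses and, from 55.2%, 48.4% in the untreated comparison. Poly-A control scaling gives no value between the lines, and in MM1S it rests on controls about as dim as the median probe set. Of 513 recomputed changes of the members, 403 moved by less than the residual SD and 108 by more. The other 2 were called changes that turned: RGS2 to -0.74 in OPM1 and -1.22 for the difference, with poly-A control scaling. Changes that were not called were not counted as turned, and some of them did change sign. RGS10 in MM1S kept its sign in 16 of 19 alternatives, and RGS14 and RGS19 in MM1S each in 16 of 18. RGS14 kept it in 17 of 18 in OPM1 and for the difference.

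With the replicate number as a block, the MM1S count was 4535, that of OPM1 7601, that of the difference 5557 and that of the untreated lines 7614. Same-numbered arrays of a line deviated together (r = 0.21 in either line) and those of different lines did not (-0.12 to -0.01). With 2 numbers only, these are not taken as pairs. The block added calls of RGS16 in MM1S (-0.33) and RGS19 between the untreated lines (0.33).

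Of 600 list counts, 516 stayed within 1.5 times. The others were small counts, given here as reported and recomputed, in the order MM1S, OPM1, difference and untreated lines. Pseudocount of 8: other RGS genes 1 to 2 in MM1S, exchange, GoLoco and arrestin genes 2 to 1 (difference) and 2 to 0 (untreated). Larger pseudocount: effectors 1 to 3 in MM1S, other RGS genes 1 to 2 (difference). No filter: effectors 1 to 3 in MM1S, exchange genes 2 to 0 (difference), other RGS genes 4 to 8 (untreated). With 60% left out, which removes genes: other RGS genes 1 to 0, alpha subunits 2 to 1 and beta and gamma subunits 6 to 3 in MM1S; other RGS genes 2 to 0, alpha subunits 6 to 3, beta and gamma subunits 9 to 5 and receptors 8 to 4 in OPM1; other RGS genes 1 to 0 and receptors 8 to 5 (difference); other RGS genes 4 to 0, alpha subunits 9 to 5, exchange genes 2 to 0, effectors 6 to 3 and receptors 8 to 5 (untreated). Quantile normalization: effectors 1 to 2 in MM1S, exchange genes 3 to 1 in OPM1 and 2 to 1 (difference). Poly-A control scaling: effectors 1 to 2, protein kinase A and cAMP genes 9 to 5 and receptors 6 to 3 in MM1S, other RGS genes 2 to 4 and effectors 4 to 9 in OPM1, and, for the difference, other RGS genes 1 to 2, RGS-domain genes 5 to 13, alpha subunits 4 to 9, effectors 3 to 9 and protein kinase A and cAMP genes 7 to 13. Mean of probe sets: alpha subunits 2 to 4 and effectors 1 to 3 in MM1S, other RGS genes 2 to 1, exchange genes 3 to 1 and receptors 8 to 5 in OPM1, exchange genes 2 to 0 (difference), other RGS genes 4 to 2 (untreated). Without probe sets of shared sequence (_x_at and _s_at): other RGS genes 1 to 2, RGS-domain genes 10 to 5, alpha subunits 2 to 4, beta and gamma subunits 6 to 2 and effectors 1 to 2 in MM1S, other RGS genes 2 to 1 and exchange genes 3 to 1 in OPM1, other RGS genes 1 to 0, beta and gamma subunits 9 to 4 and exchange genes 2 to 1 (difference), and other RGS genes 4 to 2, RGS-domain genes 10 to 4, beta and gamma subunits 6 to 2 and exchange genes 2 to 1 (untreated). Every probe set on its own: other RGS genes 1 to 2, alpha subunits 2 to 5, exchange genes 0 to 1 and effectors 1 to 3 in MM1S, RGS-domain genes 5 to 9, alpha subunits 4 to 8, effectors 3 to 5 and protein kinase A and cAMP genes 7 to 11 (difference), exchange genes 2 to 4 (untreated). On leaving out single arrays, the ranges that went past 1.5 times were 1 to 3 for effectors in MM1S and other RGS genes in OPM1, 1 to 2 for other RGS genes, 3 to 5 for RGS-domain genes and 1 to 2 for exchange genes (difference), and 1 to 2 for exchange genes and 6 to 9 for protein kinase A and cAMP genes (untreated, 10 reported; 6 without OPM1 control 1).

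Of 1879 recomputed changes of 105 named list genes, 1814 kept call and sign, 30 lost the call and 35 turned. Of the latter, 32 had another probe set standing for the gene. The turned values that were called are those of GNG7, SNX25, PRKAR2A and PLCB3 in OPM1 and of ADCY1 between the untreated lines. With a pseudocount of 8, ARRB1 went to 0.24 in OPM1, 0.43 (difference) and -0.12 (untreated). Without _x_at and _s_at sets, GNG7 went to 0.024, GNG2 to 0.036, SNX25 to 0.26 and SNX14 to 0.018 in MM1S; GNG7 to 0.41, GNG2 to 0.044, ARRB1 to 0.15 and SNX25 to 0.37 in OPM1; GNAI3 to 0.10, GNG7 to 0.39, ARRB1 to 0.26, SNX25 to 0.11 and AKAP10 to 0.18 (difference); ARRB1 to -0.072, SNX25 to 0.20 and RGS6 to 0.21 (untreated). On leaving out single arrays, PRKAR2A ran from -1.21 to 0.30 in MM1S and from -2.41 to 0.81 in OPM1, GNG2 from -0.71 to 0.036 in MM1S, ARRB1 from -2.14 to 0.098 in OPM1, from -2.03 to 0.21 (difference) and from -0.023 to 2.28 (untreated), and AKAP10 from -0.76 to 0.066 (difference); the turned values of GNG2, ARRB1 and AKAP10 are those without OPM1 control 1. With the same probe set, SNX25 went to 0.030 with the larger pseudocount (difference) and PLCB3 to -1.09 with poly-A control scaling in OPM1, and with the mean of its sets ADCY1 went to -0.74 (untreated). The cause was not tested beyond the change of probe set. With 2 arrays a group, and no detection flags, changes near the array floor have no order.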
